A study of Mus musculus with 2 samples.

Results

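The vasopressin and oxytocin system was followed through 6 genes of the 21501 named genes on a whole-mouse-genome array, which together held 7 of its 41174 probes. The genes were Avp and Oxt, which encode the hormones, the receptor genes Avpr1a, Avpr1b and Oxtr, and Creb3l1, which encodes a membrane-bound transcription factor. Their probes were found by name, as the gene symbol in the array files or an older synonym of it, and every probe of each gene is described. The genes themselves were chosen with earlier results of these data known, so their ranks among all probes are not those of genes chosen blind. Oxtr had 2 probes, the other genes had 1 each, and each probe was printed as 1 spot per array.

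Hypothalamic RNA of mice was hybridised to 4 one-colour arrays, with 1 pool of 4 mice in each group and no replicate array. The groups were bezafibrate-treated mice at ZT22, control mice at ZT22, bezafibrate-treated mice at ZT10 and control mice at ZT10, where ZT is zeitgeber time, the hours since lights on. Bezafibrate is a fibrate, a lipid-lowering drug that activates PPAR nuclear receptors. Mice aged 8 weeks had standard feed for 2 weeks, then feed with 0.5% bezafibrate for 2 weeks, then standard feed for 5 weeks. The labels do not say at which stage of that schedule the brains were taken, and strain and sex are not given in the sources used here. The tissue was a square block that contained the hypothalamus, so each pool could hold other brain regions and attached tissue.

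Vasopressin and oxytocin are made as larger precursors by magnocellular neurons of the paraventricular and supraoptic nuclei, whose axons release the hormones into the blood in the posterior pituitary. Smaller vasopressin and oxytocin neurons of the paraventricular nucleus project within the brain, and vasopressin neurons of the suprachiasmatic nucleus take part in circadian output. Vasopressin acts through V1a and V1b receptors, which couple to Gq proteins, and through the V2 receptor of the kidney, while the oxytocin receptor also couples to Gq. In rats, CREB3L1 was described as a transcription factor of magnocellular neurons that binds the Avp promoter.

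Across the arrays, 68.7 to 74.6% of the 43379 features were well above background and 0 were saturated. Signals are Feature Extraction processed signals in intensity units, and ratios are log2 ratios after scaling each array to its 75th percentile, which lay between 893 and 1050 units. The value after ± is the error of the log2 ratio combined from the scanner software's error of both signals. It covers a spot's reading on these arrays, not the spread between mice or pools, which a single pool per group cannot give. A ratio past 1.5-fold, 0.58 on the log2 scale, was called. All 4 arrays lay on 1 slide, with both control arrays in positions 1 and 2 and both bezafibrate arrays in positions 3 and 4, so diet and side of the slide cannot be told apart. Of 16 listed hypothalamic marker genes 15 were analysed, and 14 or 15 of them were well above background on each array.

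Avp and Oxt lie next to each other on mouse chromosome 2, with 0 genes between them in the RefSeq table, and are transcribed towards each other. The 250 bases before each start are shown here because they are the regulatory sequence nearest to the hormone genes, whose values lead the results. RefSeq promoters of build GRCm38.p6 were held for 4 members (Avp, Oxt, Oxtr and Avpr1a). Avp is given for chr2:130582589-130582838 on the minus strand and Oxt for chr2:130575919-130576168 on the plus strand, with matches to the E-box CACGTG, a motif of clock proteins, and to AGGTCA or its reverse TGACCT, a motif of nuclear receptors, in capitals.
Avp: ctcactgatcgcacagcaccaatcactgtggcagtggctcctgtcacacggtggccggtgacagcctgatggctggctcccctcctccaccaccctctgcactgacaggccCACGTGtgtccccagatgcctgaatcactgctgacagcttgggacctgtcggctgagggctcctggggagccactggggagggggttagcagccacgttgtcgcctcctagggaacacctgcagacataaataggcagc
Oxt: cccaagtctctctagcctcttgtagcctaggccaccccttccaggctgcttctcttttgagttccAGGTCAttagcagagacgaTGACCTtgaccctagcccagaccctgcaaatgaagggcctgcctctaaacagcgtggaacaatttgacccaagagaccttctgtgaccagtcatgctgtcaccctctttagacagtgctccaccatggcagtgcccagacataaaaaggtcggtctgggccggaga
The Avp promoter held 1 E-box, 139 bases before the start, and no AGGTCA. The Oxt promoter held AGGTCA motifs at 185 and 166 bases before the start and no E-box. On both strands of 32851 mouse promoters of the same length, 6.02% held CACGTG and 14% held AGGTCA. The Oxtr promoter held 1 of each, with the E-box 43 and AGGTCA 98 bases before the start, and the Avpr1a promoter held neither. The cAMP response element TGACGTCA, found in 1.55% of promoters, and the DR1 repeat, AGGTCA and again AGGTCA after 1 base, found in 0.0335%, were in none of these 4. These matches describe letters and were not tied to any binding.

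Avp, the vasopressin precursor gene, gave a lower signal in the bezafibrate pool than in the control pool at both times, and past 1.5-fold at ZT10. Its probe, A_51_P136508, read 49700 units in the bezafibrate pool and 70400 units in the control pool at ZT22. At ZT10 it read 39600 units in the bezafibrate pool and 60700 units in the control pool. Both bezafibrate arrays lay below both control arrays, also after scaling. The log2 ratio of bezafibrate over control was -0.32 ± 0.20 at ZT22, or 1.25-fold lower, and -0.67 ± 0.20 at ZT10, or 1.59-fold lower. The ratio at ZT10 was past 1.5-fold under each of the 6 other processing settings that changed its value, between -0.76 and -0.64. That at ZT22 was past it under 0 of 6, between -0.40 and -0.32. In RNA of a whole tissue block, fewer vasopressin cells and less Avp RNA per cell cannot be told apart.

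**Figure D1:**
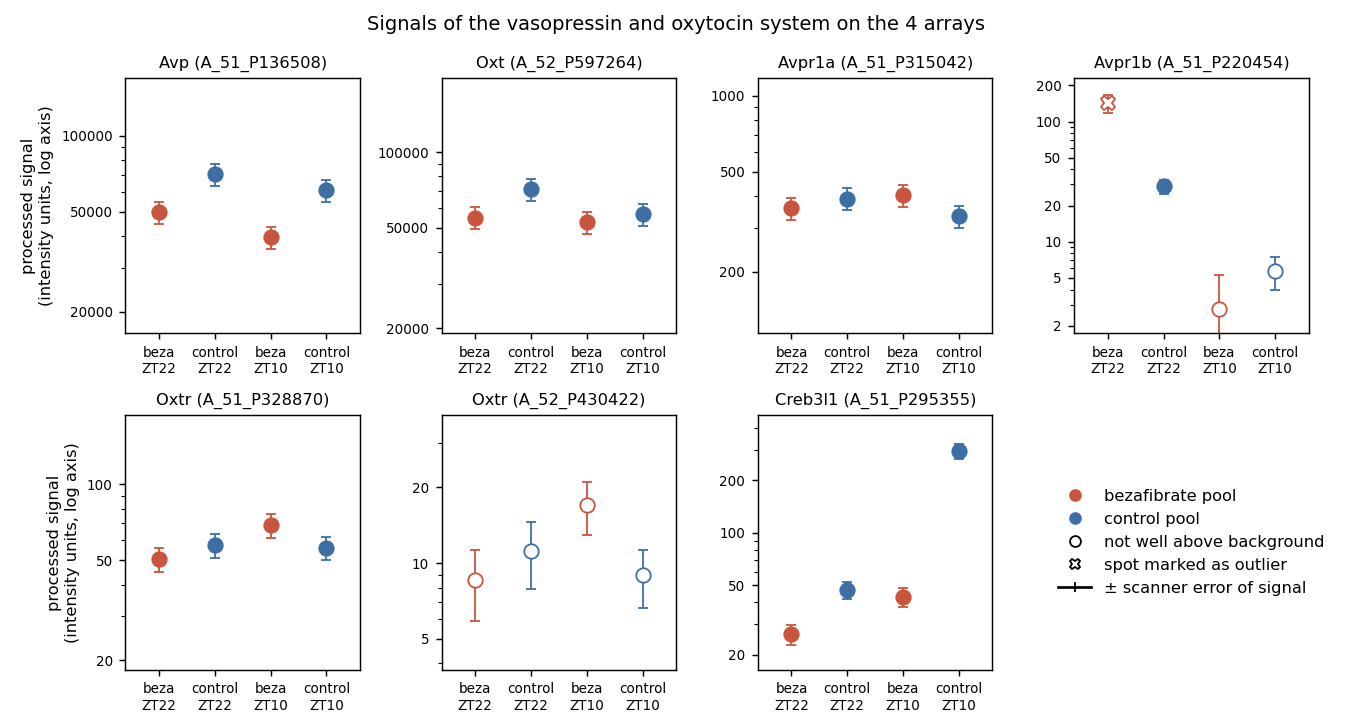
Processed signal (intensity units, log axis) of each of the 7 member probes on the 4 arrays, 1 point per pool with the scanner software's error as a bar, which for Avpr1b on the bezafibrate ZT10 array reaches to 0. Open circles are spots not well above background and the cross is a spot marked as an outlier. For Avp both bezafibrate pools lie below both control pools, and for Creb3l1 the control ZT10 pool, at 296 units, stands above the other 3, which lie between 26.3 and 47.1.

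The call for Avp was set against how often probes were called at all. At ZT22, 3.91% of the probes tested were at least 1.5-fold lower in the bezafibrate pool and 2.45% at least 1.5-fold higher. At ZT10, 2.68% were lower and 1.75% higher. Which direction held more calls turned with the processing, and at ZT22 spot medians gave 1271 higher and 574 lower. Among probes whose mean signal reached the 75th percentile, where ratios spread less than over all probes, 0.0984% were lower past 1.5-fold at ZT22 and 0.138% at ZT10. In that brighter class, 78 other probes of 10167, or 0.767%, had a ratio as low as Avp's at ZT22, and 7 of 10166, or 0.0689%, did at ZT10. The central 95% of bright probes spanned log2 ratios from -0.21 to 0.24 at ZT22 and from -0.19 to 0.22 at ZT10, and Avp lay below both ranges.

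Ratios of the spots around the Avp spot lay close to 0. Spots within 10 rows and columns of the Avp spot had a median log2 ratio of -0.02 at each time. Avp and Oxt were read at the scanner's lower gain on all 4 arrays, and probes read that way on both arrays had a median log2 ratio of 0.04 at ZT22 (n = 920) and of -0.00013 at ZT10 (n = 1003). The authors' deposited table gives a bezafibrate over control ratio for Avp of 0.758 at ZT22 and of 0.59 at ZT10. In log2 these are -0.40 and -0.76, the low ends of the ranges over settings. Across all spots the deposited log2 ratios were shifted against the scaled ones, with a median of -0.07 at ZT22 and -0.09 at ZT10.

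A fit averaged over both times could not settle the diet difference of Avp. In its 1 residual degree of freedom, the change of the diet difference between times and the spread between pools cannot be told apart. An additive limma fit over 31029 probes, with diet and time as terms and 1 residual degree of freedom, gave a log2 difference of -0.50 (95% interval -0.99 to -0.0046). Its limma p was 0.0491 before adjustment and 0.887 after Benjamini-Hochberg adjustment over all probes. For diet 0 probes passed an adjusted p of 0.05, while 1608, or 5.18%, had an unadjusted p under 0.05. The ratio at ZT22 minus that at ZT10 was 0.35 ± 0.29 in scanner error, and it has no test of its own with 1 pool per group.

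Over time, Avp was higher at ZT22 than at ZT10 in both diets. The log2 ratio of ZT22 over ZT10 was 0.56 ± 0.20 in bezafibrate mice, 1.48-fold, and 0.21 ± 0.20 in control mice, 1.16-fold. Neither passed 1.5-fold, a size that 2.88% of probes reached upwards in bezafibrate mice and 3.61% in control mice. Of the bright probes, 65, or 0.639%, were as high as Avp or higher over time in bezafibrate mice, and 776, or 7.63%, were in control mice. The diet and time ratios share arrays, so they are not separate observations.

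Oxt, the oxytocin precursor gene, differed by less than 1.5-fold in every comparison. Its probe, A_52_P597264, read 54800 units in the bezafibrate pool and 71100 units in the control pool at ZT22. At ZT10 it read 52700 units in the bezafibrate pool and 56500 units in the control pool. After scaling the diets overlapped, since the bezafibrate ZT22 array, at 61.4 times its 75th percentile, lay above the control ZT10 array at 55.9. The log2 ratio of bezafibrate over control was -0.20 ± 0.20 at ZT22 and -0.16 ± 0.20 at ZT10, each within the scanner error. Of the bright probes, 2.84% at ZT22 and 3.97% at ZT10 were as low or lower. The additive limma fit gave -0.18 for diet (95% interval -0.40 to 0.04, adjusted p = 0.887).

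Over time Oxt was higher at ZT22 in both diets by a like amount. The log2 ratio of ZT22 over ZT10 was 0.29 ± 0.20 in bezafibrate mice and 0.33 ± 0.20 in control mice. The additive limma fit gave a time difference of 0.31 (95% interval 0.09 to 0.53). Its limma p was 0.0241 before adjustment and 0.446 after it. For time 0 probes passed an adjusted p of 0.05 in limma, and 3429, or 11.1%, had an unadjusted p under 0.05. For Avp the same limma fit gave a time difference of 0.39 with an adjusted p of 0.451. The Oxt spot lies near the edge of the array, where the scanner software multiplied its signal by 1.29 to 1.31 to remove a spatial trend.

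**Figure D2:**
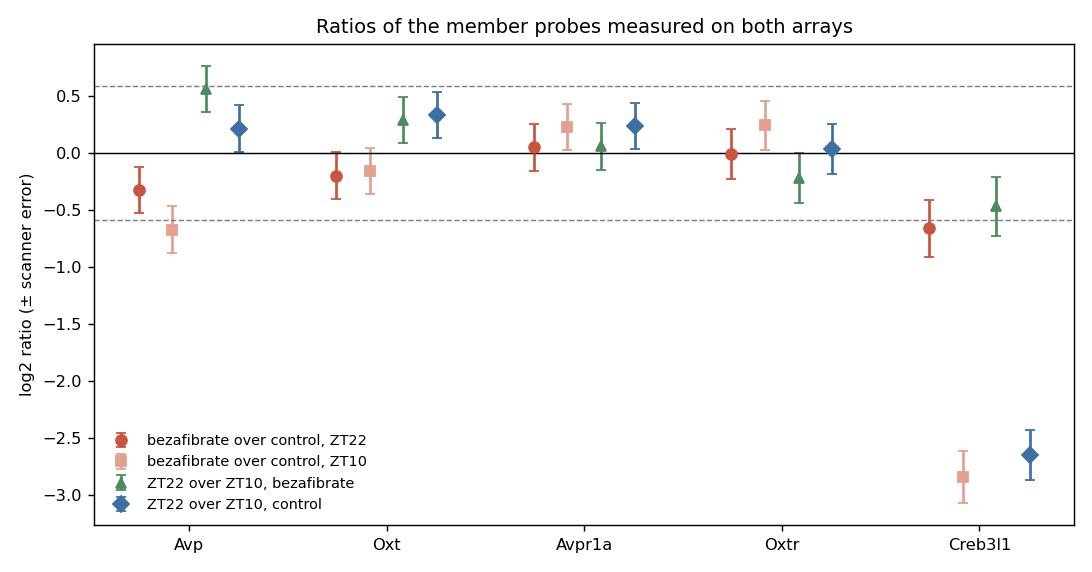
Log2 ratios of the 5 genes with a probe measured on all 4 arrays, for bezafibrate over control at each time and for ZT22 over ZT10 in each diet, with the scanner error of the ratio as bars and 1.5-fold as dashed lines. Avp at ZT10 (-0.67) lies past the line, Oxt stays inside it throughout, and Creb3l1 reaches -2.85 and -2.65 in the comparisons that hold the control ZT10 array.

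Creb3l1 had the widest range of the members measured on all 4 arrays, and 1 array set most of it. Its probe, A_51_P295355, read 26.3 units in the bezafibrate pool and 47.1 units in the control pool at ZT22. At ZT10 it read 42.8 units in the bezafibrate pool and 296 units in the control pool. The control ZT10 array was thus high, and the other 3 lay between 26.3 and 47.1 units. The log2 ratio of bezafibrate over control was -0.66 ± 0.25 at ZT22, 1.58-fold lower, and -2.85 ± 0.23 at ZT10, 7.19-fold lower. The ratio at ZT22 minus that at ZT10 was 2.18 ± 0.34 in scanner error, a difference that the additive limma fit assumes to be absent.

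Over time the ratio of Creb3l1 again turned on that array. ZT22 over ZT10 gave -0.47 ± 0.26 in bezafibrate mice and -2.65 ± 0.22 in control mice, 6.28-fold lower. Of all probes, 3.81% were called lower over time in bezafibrate mice and 4.94% in control mice. The comparisons without the control ZT10 array were those of diet at ZT22 (-0.66) and of time in bezafibrate mice (-0.47). The ratio at ZT22 stayed past 1.5-fold in 4 of the 6 other settings that changed its value, and was -0.19 after normexp background correction and -0.46 from spot medians. The additive limma fit gave -1.75 for diet with a 95% interval from -4.56 to 1.05 and an adjusted p of 0.887.

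A ratio of that size was rare at Creb3l1's brightness, but single probes that stood out on 1 array were present on each. Among probes with a mean signal of 25 to 250 units, a range chosen after the Creb3l1 signals were seen, 4.89% were at least 1.5-fold lower by diet at ZT22, 4% by diet at ZT10 and 8.28% over time in control mice. Past 2-fold, which Creb3l1 also passed in both comparisons with the control ZT10 array, the shares were 1.51% by diet at ZT10 and 3.08% over time in control mice. At ZT10 4 others of 9929 were as low by diet as Creb3l1. On the control ZT10 array 49 probes stood at least 4-fold above each of the other 3 arrays, and Creb3l1 was among them. The same held for 31 probes on the bezafibrate ZT22 array, 111 on the control ZT22 array and 22 on the bezafibrate ZT10 array. For 15 of the 49 probes another probe of the gene was measured, and 0 of those second probes stood 1.5-fold apart. Creb3l1 has no second probe on the array.

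**Figure D3:**
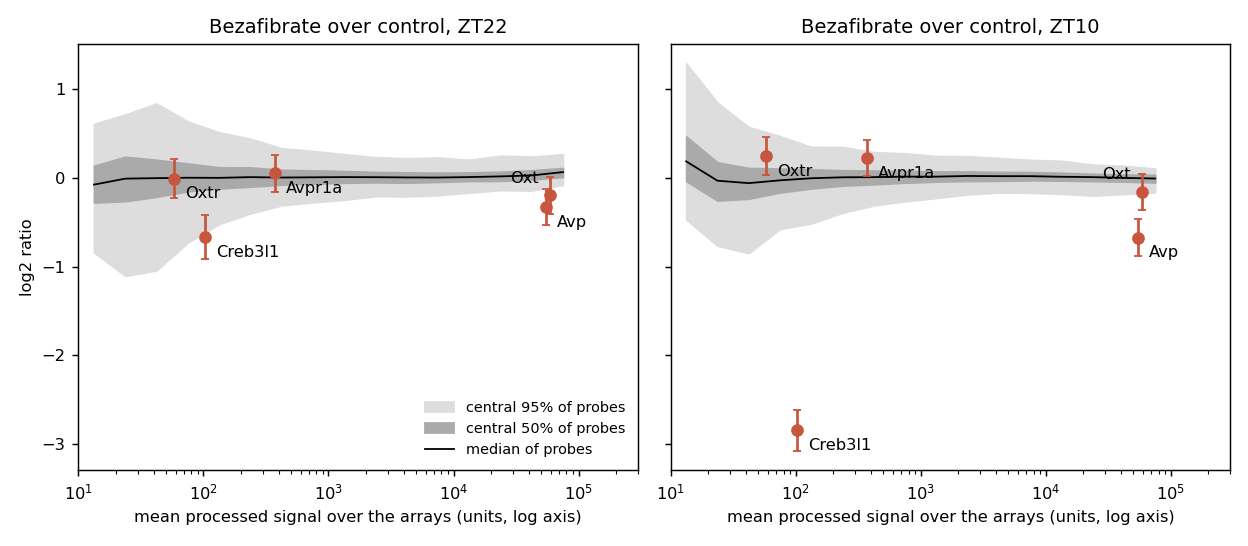
Log2 ratio of bezafibrate over control against the mean processed signal (units, log axis) for the 5 members measured on both arrays, at ZT22 and at ZT10, with scanner errors as bars. Grey bands hold the central 50% and 95% of all probes of like signal and widen at low signal. Avp lies below the 95% band at both times, and Creb3l1 far below it at ZT10.

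Of the receptor genes, Avpr1a and Oxtr had diet ratios inside 1.5-fold at both times, and Avpr1b had none. Avpr1a, which encodes the V1a receptor, had signals of 358 units in the bezafibrate pool and 391 units in the control pool at ZT22. At ZT10 its probe, A_51_P315042, read 404 units in the bezafibrate pool and 332 units in the control pool. The arrays of both diets overlapped. Bezafibrate over control gave a log2 ratio of 0.05 ± 0.20 at ZT22 and 0.23 ± 0.20 at ZT10, and that of ZT22 over ZT10 was 0.06 ± 0.20 in bezafibrate mice and 0.24 ± 0.20 in control mice. The additive limma fit gave 0.14 for diet (95% interval -0.17 to 0.45, adjusted p = 0.887).

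Oxtr, which encodes the oxytocin receptor, was measured by 1 of its 2 probes. A_51_P328870 read 50.3 units in the bezafibrate pool and 57.2 units in the control pool at ZT22, and 68.7 units in the bezafibrate pool and 55.8 units in the control pool at ZT10. Before scaling the bezafibrate arrays were the lowest and the highest, with both control arrays between them. Bezafibrate over control gave -0.01 ± 0.22 at ZT22 and 0.24 ± 0.22 at ZT10. ZT22 over ZT10 gave -0.22 ± 0.22 in bezafibrate mice and 0.04 ± 0.22 in control mice. In the additive limma fit diet gave 0.12 (95% interval -0.27 to 0.50, adjusted p = 0.899). The second probe, A_52_P430422, was not well above background on any array, with 8.58 units in the bezafibrate pool and 11.2 units in the control pool at ZT22, and 17 units in the bezafibrate pool and 8.94 units in the control pool at ZT10.

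Avpr1b, the gene of the V1b receptor known from pituitary corticotrophs and hippocampal area CA2, was near the limit of detection. Its probe, A_51_P220454, read 28.9 ± 3.78 units in the control pool at ZT22. At ZT10 it was not well above background, with 2.78 units in the bezafibrate pool and 5.69 units in the control pool. In control mice this made ZT22 at least 3.57-fold higher than ZT10, a bound with the dim side set to the lowest signal among probes well above background, or to its own value if higher. Under 6 other settings that changed it, that log2 ratio ran from 0.47 to 2.34, and 5 of them passed 1.5-fold. The spot on the bezafibrate ZT22 array was marked as an outlier by the scanner software and was left out, so no diet ratio was taken. Hippocampal CA2 markers, of which Pcp4 made up 89.2 to 90.6%, summed to 40.7 in the bezafibrate pool and 37.4 in the control pool at ZT22, and to 33.8 in the bezafibrate pool and 38 in the control pool at ZT10, in units of the 75th percentile. Without Pcp4 the sums were 4.1 in the bezafibrate pool and 3.53 in the control pool at ZT22, and 3.66 in the bezafibrate pool and 3.79 in the control pool at ZT10. Their part in the Avpr1b signal was not tested.

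Genes linked to vasopressin and oxytocin neurons were described from lists that hold each gene's brightest probe. In RNA of a whole tissue block their signals cannot be assigned to those neurons. The background past 1.5-fold was 2% of all genes higher and 3.54% lower at ZT22, and 1.44% higher and 2.41% lower at ZT10. The median log2 ratio of all genes was 0.01 at both times. Of 15 genes of the neurosecretory granule and of prohormone processing, 0 passed 1.5-fold by diet at either time. Their median log2 ratio was 0.02 at ZT22 and -0.06 at ZT10. Pcsk1, a convertase that cleaves prohormones, gave -0.12 at ZT22 and -0.18 at ZT10. Pam, the enzyme that amidates the C-terminus of both hormones, gave 0.26 at ZT22 and -0.25 at ZT10 by its brightest probe. Another Pam probe, A_51_P194070, had the opposite signs, with -0.21 at ZT22 and 0.19 at ZT10. A dimmer one, A_52_P494289, gave 0.37 at ZT22 and -0.12 at ZT10, so the probes gave no common direction.

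Other peptides made in the paraventricular and supraoptic nuclei were lower in the bezafibrate pool for 7 of 12 genes at ZT22 and for 10 of 12 at ZT10, with 0 past 1.5-fold at either time. Their median log2 ratio was -0.04 at ZT22 and -0.08 at ZT10. Pdyn encodes dynorphin, which magnocellular vasopressin neurons release with the hormone, and it gave 0.11 ± 0.20 at ZT22 and -0.30 ± 0.20 at ZT10. Cartpt, the CART peptide gene, gave -0.19 at ZT22 and -0.36 at ZT10. Cck, the cholecystokinin gene, gave -0.21 at ZT22 and -0.33 at ZT10. Penk, an enkephalin precursor gene, gave 0.44 at ZT22 and -0.01 at ZT10. Trh, which encodes thyrotropin-releasing hormone, gave -0.21 at ZT22 and -0.16 at ZT10.

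Listed transcription factors of neuroendocrine (hormone-releasing) neurons had a median log2 ratio of 0.03 at ZT22 and 0.07 at ZT10. Pou3f2, required for magnocellular neurons to form in mice, was called at ZT10, with 269 units in the bezafibrate pool and 155 units in the control pool, a log2 ratio of 0.74 ± 0.21. At ZT22 it gave 0.06 ± 0.21, with 184 units in the bezafibrate pool and 199 units in the control pool. Sim1, also needed for them, gave -0.08 at ZT22 and -0.18 at ZT10. Otp, of the same kind, was well above background on the bezafibrate ZT22 array alone, at 27.1 units, against 3.25 units in the control pool at ZT22, a log2 ratio of at least 1.35 with the dim side at its limit.

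**Figure D4:**
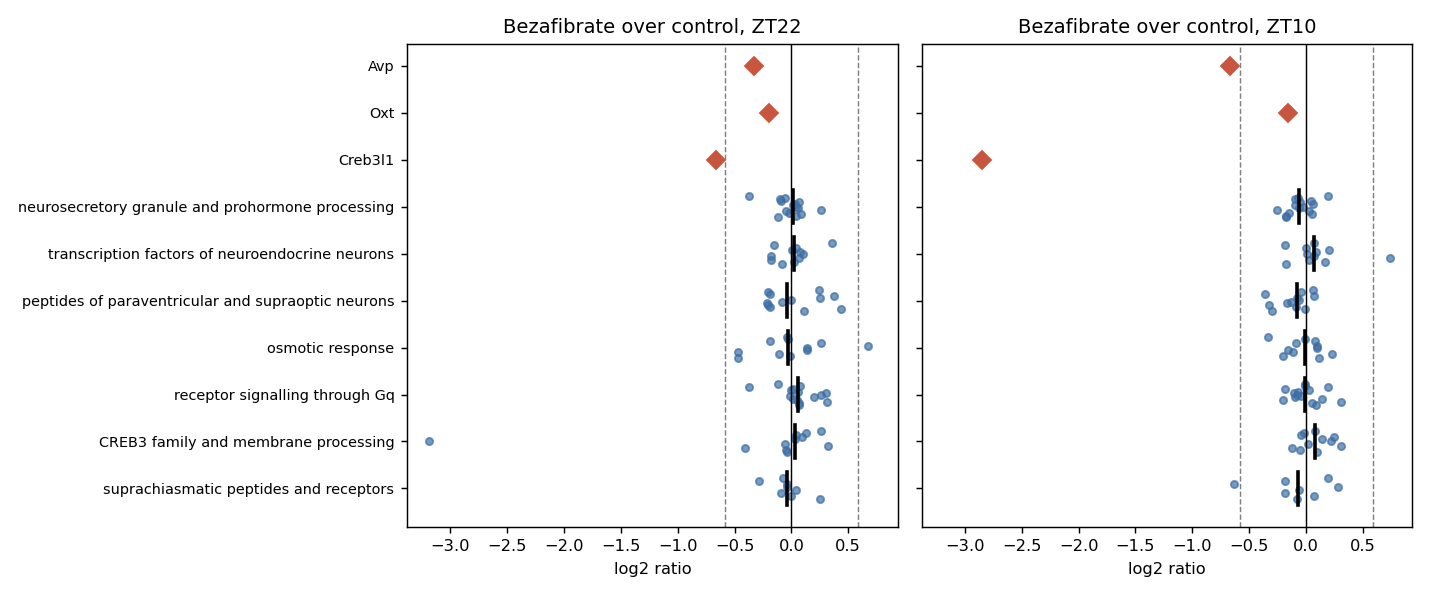
Log2 ratio of bezafibrate over control for Avp, Oxt and Creb3l1 (diamonds) and for every gene of 7 lists of related genes measured on both arrays (circles), with each list's median as a black bar and 1.5-fold as dashed lines. List medians lie between -0.04 and 0.06 at ZT22 and between -0.08 and 0.08 at ZT10. Avp, Oxt and Creb3l1 lie to the left of them at both times, with Oxt nearest.

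Genes of the osmotic response, which drives vasopressin neurons, had median log2 ratios of -0.03 at ZT22 and -0.01 at ZT10 over 11 genes. Sgk1, a kinase gene induced by salt and by glucocorticoids, was the 1 gene called by diet, with 4570 units in the bezafibrate pool and 3250 units in the control pool at ZT22, a log2 ratio of 0.67 ± 0.20. At ZT10 it gave 0.10 ± 0.20, with 8020 units in the bezafibrate pool and 7210 units in the control pool. Rasd1, a small G protein gene induced by osmotic stress in these neurons, gave -0.47 ± 0.20 at ZT22 and 0.11 ± 0.20 at ZT10. Downstream of the receptors, 15 genes of Gq signalling were measured and 0 passed 1.5-fold at either time. Their median log2 ratio was 0.06 at ZT22 and -0.01 at ZT10. Avpr2, the V2 receptor gene, was not well above background on any array, with 2.13 to 3.02 units.

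The relatives of Creb3l1 and the enzymes that free such factors from the membrane had median log2 ratios of 0.03 at ZT22 and 0.08 at ZT10 over 11 genes. Creb3l2, the closest relative, gave -0.04 at ZT22 and -0.06 at ZT10. Mbtps1, the site-1 protease gene, gave -0.05 at ZT22 and 0.01 at ZT10. Hspa5, a chaperone gene of the endoplasmic reticulum stress response, gave 0.03 at ZT22 and 0.14 at ZT10. Mbtps2, the site-2 protease gene, was called lower at ZT22, with 25.1 units in the bezafibrate pool and 258 units in the control pool, and it read 33.4 units in the bezafibrate pool and 27.6 units in the control pool at ZT10. The control ZT22 array was again a single array apart from the other 3, and the other Mbtps2 probes were not above background on any array.

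Suprachiasmatic genes were read beside Avp because that nucleus holds vasopressin cells of its own. At ZT22 they were higher than at ZT10 for 7 of 8 genes in bezafibrate mice and for 9 of 9 in control mice, with a median log2 ratio of 0.12 in bezafibrate mice and of 0.22 in control mice. The median over all genes was 0.04 in bezafibrate mice and 0.03 in control mice. Vip, a peptide gene of that nucleus, gave 0.55 ± 0.21 over time in bezafibrate mice and 0.22 ± 0.20 in control mice. By diet, Six6, a transcription factor gene of the nucleus, gave -0.04 ± 0.21 at ZT22 and -0.63 ± 0.23 at ZT10, the 1 gene of the list called by diet at ZT10. Vipr2, a VIP receptor gene, was the 1 called at ZT22, where it was not well above background in the bezafibrate pool, at 12.3 units, and read 22.2 units in the control pool. Over time Six6 (0.83 ± 0.23) and Prokr2 (0.61 ± 0.22), a receptor gene for prokineticins, were called higher in bezafibrate mice, and 0 genes were called in control mice. Of all genes, 3.03% were called higher over time in bezafibrate mice and 3.51% in control mice. With so few genes in the list, these counts do not set the diets apart. The list's medians by diet were -0.04 at ZT22 and -0.07 at ZT10 over 8 measured genes. A rise over time was not particular to this list. In bezafibrate mice, 10 of 12 paraventricular and supraoptic peptide genes (median 0.15) and 13 of 15 Gq genes (0.07) were also higher at ZT22. Of the osmotic response genes 4 of 11 were (-0.08). In control mice the counts were 7 of 12 (0.03), 9 of 15 (0.02) and 4 of 11 (-0.04).

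Markers of the hypothalamus and of tissue beside it differed between the pools as well. Of the hypothalamic markers, 3 of 15 were called higher and 0 lower at ZT22, with a median log2 ratio of 0.13 with bounds. At ZT10 2 of 14 were called higher and 1 lower, with a median of -0.05. Agrp gave 1.68 at ZT22 and 0.98 at ZT10, and Npy gave 1.26 at ZT22 and 0.72 at ZT10. Anterior and intermediate pituitary markers summed to 17.3 in the bezafibrate pool and 20.5 in the control pool at ZT22, and to 10.6 in the bezafibrate pool and 21.4 in the control pool at ZT10, in units of the 75th percentile over 13 genes. Pomc alone made up 63.6 to 76.8% of that sum. Without Pomc it was 6.29 in the bezafibrate pool and 4.77 in the control pool at ZT22, so that the order of the pools turned, and 3.61 in the bezafibrate pool and 5.83 in the control pool at ZT10. At ZT22 6 of 11 markers were higher and 5 lower, with 1 called higher and 2 lower, and the median log2 ratio was 0.07 with bounds and 0.16 over the 9 measured on both arrays. At ZT10 10 of 12 were lower in the bezafibrate pool, 5 of them past 1.5-fold, with a median of -0.43 with bounds and -0.56 over the 11 measured on both arrays. Prl, the prolactin gene, read 2.41 units in the bezafibrate pool and 59.2 units in the control pool at ZT22, and 17.7 units in the bezafibrate pool and 380 units in the control pool at ZT10. Gh, the growth hormone gene, read 9.25 units in the bezafibrate pool and 63.9 units in the control pool at ZT22, and 15.9 units in the bezafibrate pool and 201 units in the control pool at ZT10. Pomc, which hypothalamic neurons express too, read 9840 units in the bezafibrate pool and 15900 units in the control pool at ZT22, and 7380 units in the bezafibrate pool and 15700 units in the control pool at ZT10. Tshb, the 1 marker called higher at ZT22, read 492 units in the bezafibrate pool and 218 units in the control pool there. At ZT10 it read 190 units in the bezafibrate pool and 226 units in the control pool. Its dimmer probe gave a log2 ratio of -0.09 at ZT22. Cga read 4150 units in the bezafibrate pool and 3480 units in the control pool at ZT22. At ZT10 Cga read 2570 units in the bezafibrate pool and 4010 units in the control pool. Pou1f1, which defines the cells that make prolactin and growth hormone, was not well above background on any array. The part of pituitary tissue in the Avp and Creb3l1 differences was not tested.

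Other neighbouring markers moved at 1 time or at both. Thalamus markers were lower in the bezafibrate pool for 8 of 9 genes at ZT22 (median log2 ratio -0.19) and for 9 of 9 at ZT10 (median -0.20), with 2 called at ZT10. Striatum markers were higher for 8 of 8 at ZT22 (median 0.60, 4 called) and choroid plexus markers for 6 of 7 (median 1.30, 6 called), while myelin markers were lower for 8 of 8 (median -0.34). At ZT10 the median was -0.05 for striatum, -0.07 for choroid plexus and -0.05 for myelin markers. Connective tissue markers, from cells that also express Creb3l1, were lower for 5 of 5 genes at both times, with medians of -0.23 at ZT22 and -0.21 at ZT10 and Col3a1 called at ZT10 (-0.64). Their sum was 6.59 in the bezafibrate pool and 7.49 in the control pool at ZT22, and 5.73 in the bezafibrate pool and 6.3 in the control pool at ZT10. Over time these connective tissue markers were higher at ZT22 for 5 of 5 genes in both diets, each with a median of 0.24. Creb3l1 was lower over time in both, at -0.47 in bezafibrate mice and -2.65 in control mice. Pan-neuronal markers had medians of 0.09 at ZT22 and 0.00 at ZT10. Cortex and hippocampus markers were lower for 4 of 6 genes at ZT22 (median -0.10) and for 5 of 6 at ZT10 (median -0.35 with 1 bound), where Neurod2 and Slc17a7 were called. Neurod2, a neuronal transcription factor gene, read 205 units in the bezafibrate pool and 256 units in the control pool at ZT22, and 192 units in the bezafibrate pool and 541 units in the control pool at ZT10. Slc17a7, a vesicular glutamate transporter gene, read 42.2 units in the bezafibrate pool and 50.2 units in the control pool at ZT22, and 27.6 units in the bezafibrate pool and 71.5 units in the control pool at ZT10. Both were thus highest on the control ZT10 array, as Creb3l1 was. Astrocyte markers had medians of 0.04 at ZT22 and 0.02 at ZT10. The part of any of these in the Avp, Oxt and Creb3l1 values was not tested.

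The probes whose course over the 4 arrays was most like each hormone gene's were found among 24820 probes well above background on all arrays. Likeness was the root-mean-square distance between log2 profiles centred on their own means, over 4 points from 4 pools. For Avp they were those of Tgtp1 (distance 0.03), Zbbx (0.04), Hkdc1 (0.06), Krtap7-1 (0.06) and Bsnd (0.06). For Oxt they were those of Sidt2 (0.02), H2-Q10 (0.02), Cdkn2b (0.02), Pfkfb4 (0.02) and Tmem212 (0.02). For Creb3l1 they were less near, with Svep1 (0.22), Wdr91 (0.27), Cadps2 (0.34), Mutyh (0.34) and Adamtsl5 (0.36). The Cadps2 probe among them read 20.1 units in the bezafibrate pool and 23.7 units in the control pool at ZT22, and 31 units in the bezafibrate pool and 130 units in the control pool at ZT10. A brighter probe of Cadps2, a gene of dense-core vesicle release, gave log2 ratios of -0.09 at ZT22 and 0.05 at ZT10.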

How the data were processed

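Hypothalamic RNA pools were compared on 4 one-colour (Cy3) arrays. From each pool 400 ng of RNA was labelled, per the labels' protocols. Each deposited sample held the bezafibrate and the control array of 1 time, and groups come from the labels. Per the file headers, the authors extracted spots with Feature Extraction 9.5.1.1, and the deposited processed signal is a background-subtracted, detrended intensity, not normalized between arrays. The deposited table of ratios is the authors' bezafibrate over control ratio. Across spots its r with the processed-signal ratio was 0.995 at ZT22 and 0.996 at ZT10, and it was used as an alternative.

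Control spots and outlier spots were left out and spots of a probe averaged. Signals were divided by the 75th percentile of each array and taken to log2. A probe entered a comparison when well above background on at least 1 of its arrays, and a dim side counted through a bound. Diet and time were also fitted over all arrays with limma 3.58.1 in R 4.3.3 (lmFit and eBayes), an additive model with 1 residual degree of freedom and a prior of 1.26. With 1 array per group, no p-value was taken within a time or a diet, and the number of arrays limits the precision. The ratio and fit steps were tested on simulated data.

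Alternatives were median and quantile scaling, normexp (offset 50), a mean signal of at least 100 units, no filter, outlier spots kept, a mean over a gene's probes and the authors' ratio. Signals without multiplicative detrending and spot medians minus background were added after the data were seen. Of 41174 probes 22951 were named by accession, 5850 by symbol, 3944 by an older symbol and 2225 by the name in the files, with RefSeq names of assembly GRCm38.p6, and 6204 had none. All members were named, with each list's fixed genes and up to 4 of its largest ratios, and the 5 profiles nearest to Avp, Oxt and Creb3l1. Where the text gives fewer, a list's counts stand for the rest. The members and lists were chosen with earlier results of these data known.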

Additional observations from a re-analysis of the deposited data

Results flagged for a closer look

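The Avpr1b spot on the bezafibrate ZT22 array was left out of the comparisons because the scanner software marked it as a non-uniform outlier, yet it held a signal well above background of 143 units. The control pool at ZT22 read 28.9 units. Taken as it stands, it would give a bezafibrate over control ratio of 5.6, and the authors' deposited table gives 5.329 for it. The median pixel of the spot minus its local background was 40 units in the bezafibrate pool and 43.5 units in the control pool at ZT22, a scaled log2 ratio of 0.05.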

How the results depend on the processing

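Of the recomputed values of single members, 57 equalled the reported value by construction, all under the filter and outlier-spot settings, which do not alter a single unmarked spot. Of the 116 that changed, 3 lost a call (Creb3l1 for diet at ZT22 with normexp and spot medians, and Avpr1b for time in control mice with normexp), 0 gained one and 0 turned the sign of one. Avp at ZT10 stayed past 1.5-fold under the 6 alternatives that changed it. Dim probes depend on the background method. With normexp Creb3l1 gave -0.19 for diet at ZT22, -1.75 for diet at ZT10, -0.16 for time in bezafibrate mice and -1.72 for time in control mice, and from spot medians -0.46 for diet at ZT22 and -2.37 for diet at ZT10. The Avpr1b time ratio in control mice was 0.47 with normexp, 1.30 from spot medians and 2.34 without a filter. Near 0 the sign changed for Avpr1a at ZT22 in 1 of the 6 alternatives that changed it, for Oxtr at ZT22 in 3 of 6 and for Oxtr over time in control mice in 1 of 5. The causes were not tested.

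The number of probes past 1.5-fold was 1876 for diet at ZT22, 1354 for diet at ZT10, 1951 for time in bezafibrate mice and 2631 for time in control mice. In the same order it was 349, 280, 354 and 556 with normexp, and 246, 195, 350 and 446 among probes averaging 100 units or more, where fewer probes were tested. It was 4714, 9292, 4736 and 7829 without a filter, and 533, 401, 570 and 787 as means over a gene's probes, where fewer features were tested. Quantile normalization turned the split at ZT10, 534 higher and 820 lower, into 666 higher and 616 lower. The larger direction turned in 3 of 10 alternatives for diet at ZT22, 3 of 10 for diet at ZT10, 5 of 9 for time in bezafibrate mice and 2 of 9 for time in control mice. At ZT22, 723 higher and 1153 lower became 1271 higher and 574 lower from spot medians and 862 higher and 785 lower in the authors' deposited table, and for time in bezafibrate mice 840 higher and 1111 lower became 244 higher and 110 lower with normexp. For the additive diet effect the limma fit called 1 probe when limited to probes averaging 100 units or more, against 0 as reported. No paired analysis was possible because each group was a single array. Leaving out an array left no residual degrees of freedom, so that no such fit was run.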

Other observations

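The genes named here were picked with their values in view. Among 10167 bright probes, 4 were lower in the bezafibrate pool at both times by at least the log2 ratio of Avp at ZT22, and 10 probes of 9 genes were higher by as much. Besides Avp, the 4 were probes of Pomc (-0.51 at ZT22 and -1.15 at ZT10), Synpo2 (-0.48 at ZT22 and -0.65 at ZT10) and Zzef1 (-0.33 at ZT22 and -0.53 at ZT10).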
